A study of Mus musculus with 384 samples.

Results

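Potassium channel genes were examined for accessible chromatin in a mouse breast tumor. The members were the protein-coding genes of the GENCODE vM1 annotation whose symbol starts with Kcn, 96 of 22350 protein-coding gene entries in mouse build mm9. They carried 94 distinct symbols, because Kcnb2 and Kcnh8 each had 2 entries. The tumor came from an MMTV-PyMT mouse of 3 months, in which the mammary tumor virus promoter drives the polyoma middle T oncogene in the mammary epithelium, and its cells were stained for EpCAM, an epithelial surface protein, and CD45, a leukocyte surface protein. Pi-ATAC, which reads open chromatin by transposase tagging in single cells of known protein staining, was run on 4 plates of 96 wells. All wells formed 1 group with no untreated or normal tissue beside it, and no label gave the stain of a well. The paper reports similar numbers of EpCAM+ and CD45+ cells among those passing its filter, although CD45+ cells were a small part of the stained tumor cells. The pooled cells thus did not mirror the make-up of the tumor. What was available for analysis was a single list of 50000 accessible windows, each spanning 500 bp around a summit called on the aggregated cells, with no score or read count.

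Potassium channels let potassium ions leave or enter a cell and so set its membrane voltage. Voltage-gated channels open on depolarization, inward rectifiers and two-pore channels hold the resting voltage, and calcium-activated channels couple the voltage to intracellular calcium. Accessory subunits change the gating or the surface level of the pore-forming subunits. In T cells the outward flow of potassium sustains calcium entry during activation, and in secretory epithelia it drives chloride and fluid transport.

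A gene was given a promoter window when the centre of a window lay within 1 kb of any of its annotated start sites. A window centred up to 50 kb from a start site was counted as nearby, whichever gene it was closest to. There were no replicates and the depth behind a window was unknown, so the values are counts in 1 pooled list, and the 95% intervals of shares are exact (Clopper-Pearson) and cover counting error only. In such a pool, a site open in few cells and a site weakly open in many cannot be told apart. For the labelled cell types, 2 of 5 epithelial marker genes (Elf3 and Cdh1) and 4 of 5 leukocyte marker genes (Coro1a, Laptm5, Runx3 and Fli1) had a promoter window, whereas Epcam and Ptprc, which encode the stained proteins, did not but had 9 and 4 windows within 50 kb. Of 4 neuronal marker genes, Rbfox3 and Syn1 had a promoter window. Since 43.5% of all protein-coding genes had one, these few markers do not tell the cell types apart by their promoters. The list was uneven across chromosomes. It held at most 41.5% to 51.8% of the called peaks of chromosomes 7, 8, 9 and X and at most 23.6% to 26.5% of those of the other 16 autosomes, because the number of called peaks was known only as a lower bound, so counts are also given without these chromosomes.

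The windows of 6 promoters are shown first, since they cover channels of leukocytes and epithelia described below, with Kcnip1 as a case of a later start site, and range from few to many CpG dinucleotides. Each is the part of the window nearest its summit that overlapped no annotated exon, in mm9 and read 5′ to 3′ on the strand of the gene. Capitals mark AP-1 words (TGAGTCA or TGACTCA) and SP/KLF words (GGGGCGGGG), searched on both strands.
Kcnn4, chr7:25154932-25155131, plus strand: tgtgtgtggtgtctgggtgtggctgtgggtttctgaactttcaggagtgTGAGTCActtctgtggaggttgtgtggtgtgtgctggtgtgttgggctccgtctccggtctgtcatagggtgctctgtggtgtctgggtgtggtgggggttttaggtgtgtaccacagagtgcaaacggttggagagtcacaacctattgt
Kcnj2, chr11:110927278-110927477, plus strand: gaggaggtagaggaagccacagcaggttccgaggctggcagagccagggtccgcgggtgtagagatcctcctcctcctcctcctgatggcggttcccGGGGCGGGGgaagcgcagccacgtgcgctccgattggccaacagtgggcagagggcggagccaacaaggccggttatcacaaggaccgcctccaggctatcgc
Kcnk13, chr12:101203063-101203262, plus strand: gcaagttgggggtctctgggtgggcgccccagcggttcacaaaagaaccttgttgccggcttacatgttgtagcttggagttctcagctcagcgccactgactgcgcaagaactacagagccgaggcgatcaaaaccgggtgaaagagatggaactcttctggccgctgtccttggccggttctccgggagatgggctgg
Kcnk5, chr14:21001005-21001153, minus strand: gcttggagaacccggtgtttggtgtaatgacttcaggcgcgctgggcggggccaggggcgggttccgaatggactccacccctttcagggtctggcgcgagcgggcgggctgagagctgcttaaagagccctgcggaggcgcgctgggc
Kcnip1, chr11:33743649-33743848, minus strand: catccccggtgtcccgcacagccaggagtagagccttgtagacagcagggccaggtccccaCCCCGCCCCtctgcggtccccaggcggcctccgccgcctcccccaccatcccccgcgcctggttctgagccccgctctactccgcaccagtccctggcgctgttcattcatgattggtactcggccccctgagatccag
Kcnj1, chr9:32201370-32201569, plus strand: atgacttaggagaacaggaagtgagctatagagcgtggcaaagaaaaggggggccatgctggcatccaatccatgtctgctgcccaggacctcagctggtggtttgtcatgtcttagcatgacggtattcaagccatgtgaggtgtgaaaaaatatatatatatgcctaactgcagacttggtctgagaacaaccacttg
The stretch of Kcnn4 held 3 CpG and 1 AP-1 word, that of Kcnj1 held 2 CpG and neither word, and those of Kcnj2 and Kcnip1 held 14 and 13 CpG with 1 SP/KLF word each. The Kcnk13 stretch held 11 CpG and the shorter Kcnk5 stretch 13, with neither word.

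Few potassium channel genes had a promoter window in the list. A promoter window was found at 17 of the 96 Kcn genes (17.7%, 95% interval 10.7% to 26.8%), against 43.5% of all protein-coding genes (9718 of 22350, 42.8% to 44.1%). Without chromosomes 7, 8, 9 and X the shares were 14 of 79 Kcn genes (17.7%) and 42.8% of 16999 genes. At 50 kb the shares were close to each other. Nearby windows were present at 81 Kcn genes (84.4%, 75.5% to 91.0%) and at 84.6% of all protein-coding genes (18911 of 22350). The remaining Kcn genes thus fell into 64 with nearby windows but no promoter window and 15 with neither. Genes with nearby windows but no promoter window made up 66.7% of Kcn genes and 41.1% of all protein-coding genes.

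The median distance from a start site to the nearest window was 8859.5 bp for Kcn genes and 3253 bp for all protein-coding genes. The number of windows within 50 kb averaged 3.45 per Kcn gene (median 3, range 0 to 16) and 4.10 per protein-coding gene (median 3). Of these windows, 46.8% were nearer to a start site of that Kcn gene than to any other protein-coding gene, against 40.8% over all genes. Kcn genes had fewer annotated start sites on average (mean 2.46, against 3.13 for all genes), although the median was 2 in both. Among genes with a single start site, 5 of 39 Kcn genes (12.8%) had a promoter window, against 27.3% of 9829 genes. No interval was computed for these few Kcn genes and the difference was not tested, so it is not resolved at equal numbers of start sites.

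**Figure D1:**
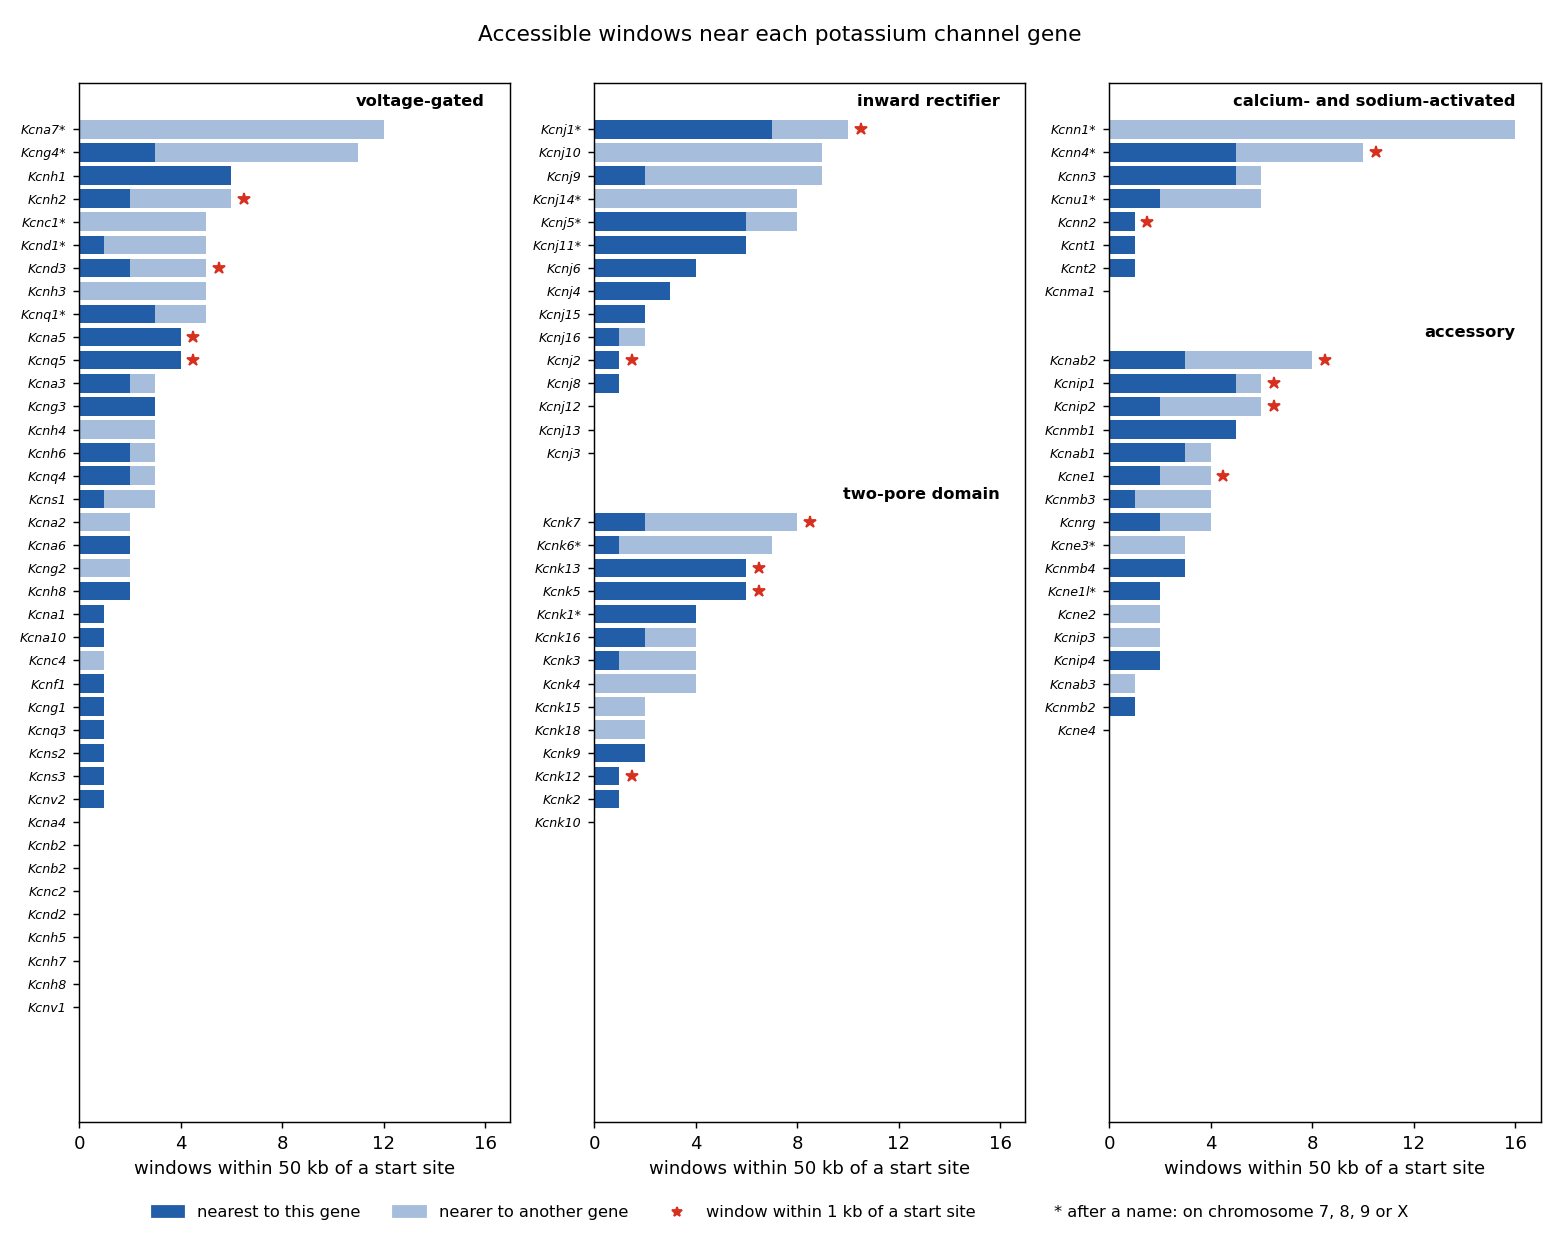
Number of accessible windows within 50 kb of a start site (horizontal axis) for each Kcn gene entry shown, by subfamily, with dark bars for windows nearest to that gene, light bars for windows nearer to another gene and a star for each gene with a promoter window. The longest bar, Kcnn1 with 16 windows, is light throughout, and 15 entries have no bar.

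The voltage-gated subfamily was the largest and had a promoter window at 5 of 42 genes (11.9%, 3.98% to 25.6%). Among these were Kcna5, a subunit of the ultrarapid atrial current, Kcnd3 of the transient A-type channels, Kcnh2, the hERG channel that repolarizes the heart, and Kcnq5 of the M-type channels that restrain neuronal firing. The Kcnq5 gene carried 2 promoter windows, centred 400 and 991 bp downstream of a start site, the second of them also within 1 kb of the start of the long non-coding RNA gene Gm16705. The Kcna5 window (chr6:126485114-126485613) lay downstream of the start, over the untranslated part of the exon.

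The inward rectifiers had a promoter window at 2 of 15 genes (13.3%, 1.66% to 40.5%). Kcnj2, which encodes the strong inward rectifier Kir2.1, had its window centred 35 bp upstream of its start, and this was its only window within 50 kb. Kcnj1, which encodes the ROMK channel of kidney tubules, instead had 10 windows within 50 kb, 7 of them nearest to it. Its neighbour Kcnj5, a subunit of the G protein-gated channel of the atrium, had 8, and 5 of the 13 windows near either gene were shared.

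The two-pore channels had a promoter window at 4 of 14 genes (28.6%, 8.39% to 58.1%): Kcnk5, Kcnk7, Kcnk12 and Kcnk13. Kcnk5, the alkaline-activated TASK-2 channel, had promoter windows centred 100 and 814 bp downstream of its start, the first over its untranslated exon and the second in its intron. All 6 windows within 50 kb of Kcnk5 were nearest to Kcnk5, and 3 further ones lay in its introns, at 3829, 8414 and 16110 bp. All 6 windows near Kcnk13, which encodes the THIK-1 channel of microglia, were also its own, with 3 upstream between 10479 and 21661 bp and 3 between 300 and 2015 bp downstream of the start. The related Kcnk12 had only 1 window, in a coding exon 641 bp downstream of its start.

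The calcium- and sodium-activated channels had a promoter window at 2 of 8 genes (25.0%, 3.19% to 65.1%). Kcnn4 encodes the intermediate-conductance calcium-activated channel of lymphocytes, red cells and epithelia. Its 2 promoter windows, centred 250 and 47 bp upstream of a start, overlapped and came from 2 summits of 1 called peak. It had 10 windows within 50 kb, of which 5 were nearest to it, including an intronic one at 3956 bp. Kcnn2, the small-conductance channel of neurons, had a single window within 50 kb of a start site and 5 windows in its gene body. Kcnma1, the large-conductance BK channel, had none within 50 kb and its nearest at 52818 bp.

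Among accessory genes, 4 of 17 (23.5%, 6.81% to 49.9%) had a promoter window: Kcnab2, a cytoplasmic beta subunit of Kv1 channels, Kcne1, a single-pass partner of Kcnq1, and Kcnip1 and Kcnip2, calcium-binding partners of Kv4 channels. The 4 genes for beta subunits of the BK channel (Kcnmb1 to Kcnmb4) had no promoter window, although Kcnmb1 had 5 windows between 14570 and 49833 bp upstream that were all nearest to it. Kcnmb1 lies within the Kcnip1 gene, so these 5 windows are also in the body of Kcnip1. The intervals of the 5 subfamilies overlapped widely, beside the share of 43.5% over all protein-coding genes, and the pore-forming genes together had a promoter window at 13 of 79 (16.5%, 9.06% to 26.5%). No difference between subfamilies could be resolved with these numbers.

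**Figure D2:**
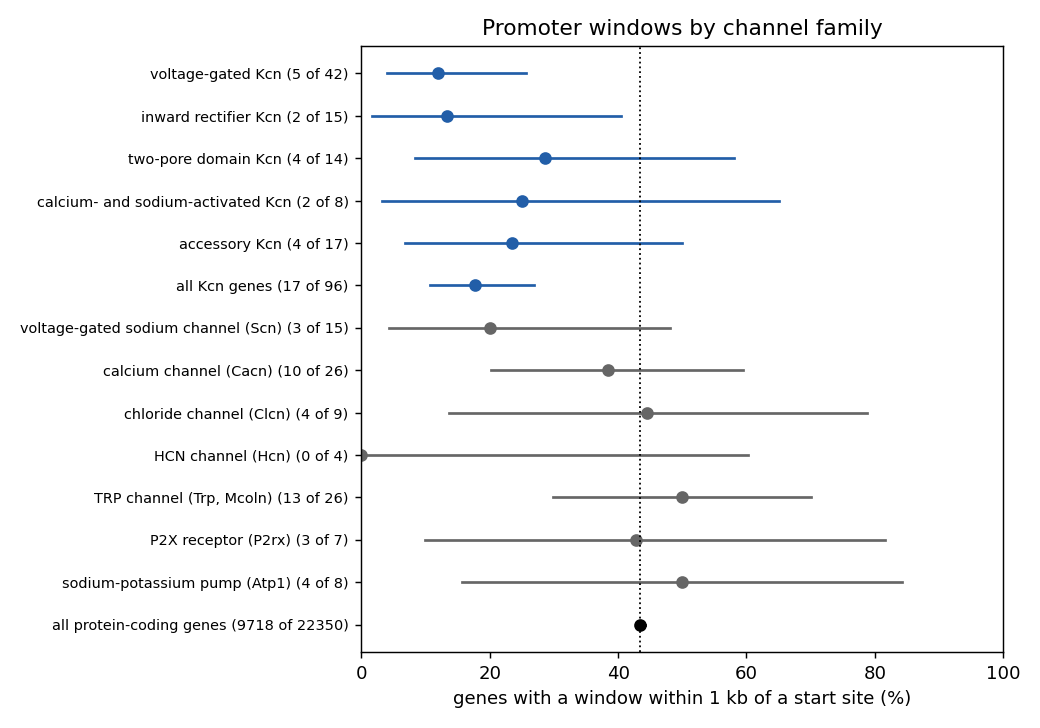
Share of genes with a promoter window (horizontal axis, percent) for the Kcn subfamilies and all Kcn genes (blue), other ion channel and pump families (grey) and all protein-coding genes (black), with exact 95% intervals as lines and gene counts beside the names. The share of all Kcn genes, 17.7%, and its whole interval lie left of the dotted line at 43.5%, whereas most single families have intervals that cross it.

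Fewer of the Kcn genes had their promoter window at the 5′ end of the gene. Of the 17 Kcn genes with a promoter window, 10 (58.8%) had one at the 5′ end of the gene and 7 (41.2%) only at a later start site, against 90.6% and 9.35% of the 9718 protein-coding genes with one. The 7 genes were Kcnab2, Kcnd3, Kcnh2, Kcnip1, Kcnip2, Kcnj1 and Kcnn2. The distance from the 5′ end of the gene to the window was 290353 bp in Kcnn2, 149403 bp in Kcnip1, 29219 bp in Kcnab2, 21747 bp in Kcnh2, 21503 bp in Kcnj1, 19767 bp in Kcnip2 and 6578 bp in Kcnd3. With the 5′ end alone as the start site, 10.4% of Kcn genes had a promoter window, against 39.4% of all protein-coding genes. The windows of Kcnh2, Kcnip1, Kcnj1 and Kcnab2 were centred in an intron of longer transcripts, those of Kcnd3 and Kcnip2 in a coding exon, and that of Kcnn2 in an untranslated exon.

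Some genes lay close to the limit of 1 kb. Just inside it were Kcne1, whose window was 918 bp upstream, and Kcnn2 at 796 bp. Just outside were Kcnab1, another beta subunit of Kv1 channels, at 1002 bp, Kcna3, the Kv1.3 channel of T cells, at 1485 bp in its coding exon, and Kcnh1, the ether-a-go-go channel, at 1615 bp in an intron. None of the 20 promoter windows of Kcn genes was within 1 kb of a start of another protein-coding gene (95% upper bound 16.8%). Of the 12496 promoter windows of all protein-coding genes, 11.2% were near starts of 2 or more, a share inside that bound.

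**Figure D3:**
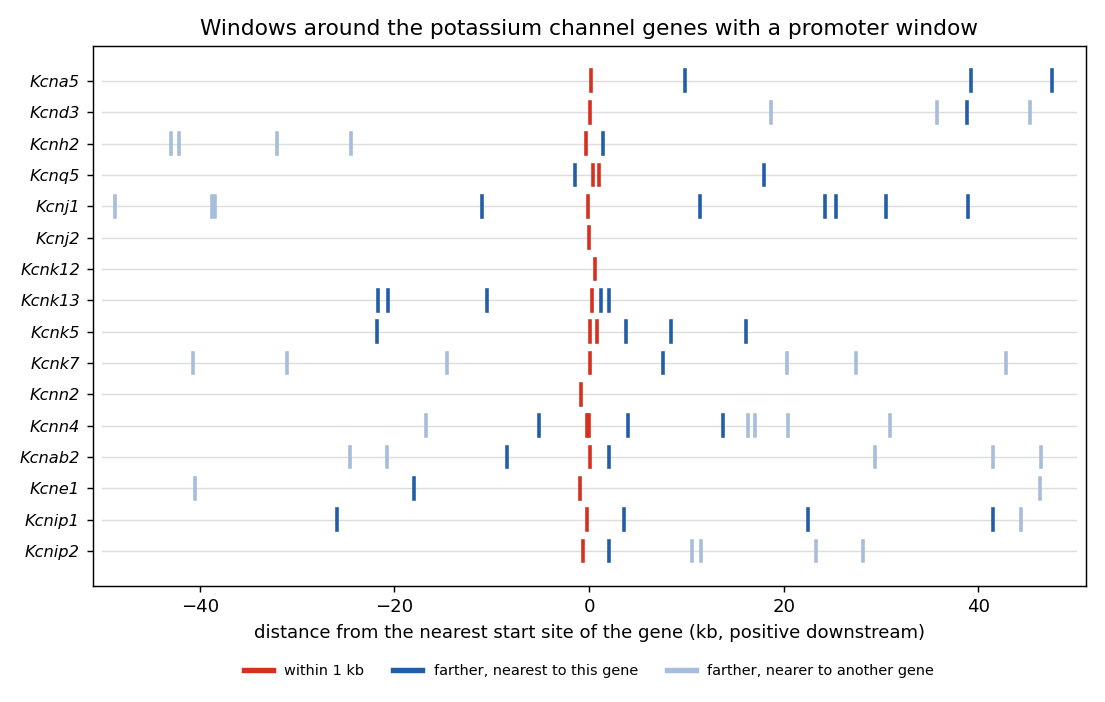
Position of every window within 50 kb of the Kcn genes shown that had a promoter window, as distance from the nearest start site of the gene in kb (positive downstream), with promoter windows in red, farther windows nearest to the gene in dark blue and those nearer to another gene in light blue. Kcnj2, Kcnk12 and Kcnn2 have no other window, and those of Kcnk5, Kcnk13, Kcna5 and Kcnq5 are all their own.

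Promoters rich in CpG are usually open in most cell types. The CpG content of Kcn genes was close to that of other genes, with a median of 40 CpG within 500 bp of the 5′ end, against 41 for all protein-coding genes. In the most CpG-rich of 3 classes of about equal size (61 to 180 CpG), 6 of 29 Kcn genes had a promoter window (20.7%, 7.99% to 39.7%), against 70.4% of 7348 genes. In the middle class (19 to 60 CpG) the shares were 10 of 47 Kcn genes (21.3%, 10.7% to 35.7%) and 49.1% of 7533 genes, and in the class of 0 to 18 CpG they were 1 of 20, Kcnj1 (5.00%, 0.127% to 24.9%) and 11.3% of 7469 genes. Thus the share rose with CpG content over all genes but was no higher in the top class than in the middle class of Kcn genes.

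The windows of 3 of the 6 CpG-rich genes, Kcnab2, Kcnd3 and Kcnh2, lay at later start sites. At the CpG-rich 5′ end itself a window was present, Kcnk12 and Kcnq5 included, at 3 of 29 Kcn genes (10.3%, 2.19% to 27.4%) against 67.3% of genes in that class. CpG-rich Kcn genes with no promoter window included Kcnmb4, a BK beta subunit, Kcng3, a silent modifier of other voltage-gated channels, and Kcnj12, an inward rectifier. The nearest window was 3038 bp away at Kcnmb4, 3097 bp at Kcng3 and 87059 bp at Kcnj12. Without chromosomes 7, 8, 9 and X the top class gave 5 of 25 Kcn genes (20.0%) and 68.3% of 5913 genes.

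**Figure D4:**
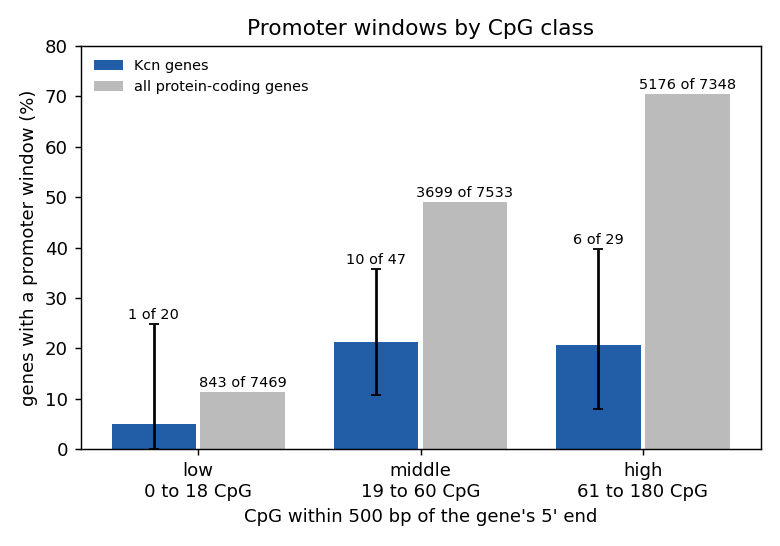
Share of genes with a promoter window (vertical axis, percent) in 3 classes of CpG count around the 5′ end, for Kcn genes (blue, exact 95% intervals) and all protein-coding genes (grey), with counts above the bars. The blue bars stand at 5.00%, 21.3% and 20.7% and the grey bars at 11.3%, 49.1% and 70.4%.

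The channels were also grouped by where they are known to act. Of 7 channels known in leukocytes, 5 had a promoter window (71.4%, 29.0% to 96.3%), namely Kcnab2, Kcnj2, Kcnk13, Kcnk5 and Kcnn4. Kcna3 and Kcnk6, a two-pore channel of macrophages, did not. Kcna3 had 3 windows within 50 kb, 2 of them its own, and Kcnk6 had 7, of which 1 was its own. Of 12 channels of secretory and absorptive epithelia, 4 had one (33.3%, 9.92% to 65.1%), namely Kcne1, Kcnj1, Kcnk5 and Kcnn4. Of the epithelial channels without one, Kcnk1, the TWIK-1 channel, had 4 windows within 50 kb, all its own, and Kcnq1, the epithelial and cardiac partner of Kcne1, had 5, of which 3 intronic ones were its own. Kcnj15 had 2, both its own, and Kcnj16 had 2, of which 1 was its own. Kcne2, Kcne3 and Kcnj10 had 2, 3 and 9 windows within 50 kb but none nearest to them, and Kcnma1 had none in that range. Kcnk5 and Kcnn4 stand in both lists, so the lists are not separate.

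Of 18 channels typical of neurons, 3 had a promoter window (16.7%, 3.58% to 41.4%), Kcnn2 and Kcnq5 among them. The neuronal channels Kcna4, Kcnc2, Kcnd2 and Kcnj3 had no window within 50 kb, and the window nearest to Kcnd2, an A-type channel, was 340972 bp away. Of 7 channels often linked to tumors, Kcnh2, Kcnk5 and Kcnn4 had a promoter window (42.9%, 9.90% to 81.6%), while Kcnh1 had 6 windows within 50 kb, all its own, Kcnk9, the TASK-3 channel, had 2, and Kcnj3 and Kcnma1 had none. Over all protein-coding genes the share was 43.5%, and the intervals of the leukocyte, epithelial and tumor-linked lists include it. The interval of the neuronal list lies below it, but its share is close to the 17.7% of all Kcn genes. The intervals of the neuronal, epithelial and tumor-linked lists include 17.7%, and that of the leukocyte list lies above it. The members were assigned to lists with earlier results of these data known, so the counts are no independent evidence.

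The number of nearby windows varied from gene to gene. The genes with most windows within 50 kb were Kcnn1 (16 windows), Kcna7 (12), Kcng4 (11), Kcnj1 and Kcnn4 (10 each) and Kcnj9 and Kcnj10 (9 each). Genes with 10 or more windows made up 5 of the 96 Kcn genes (5.21%) and 9.20% of all protein-coding genes. These 5 Kcn genes all lay on chromosomes 7, 8 or 9, where the list held more of the called peaks. How many of all such genes lay there was not counted. The 17 Kcn genes on chromosomes 7, 8, 9 and X averaged 7.41 windows and the 79 others 2.59, against 5.76 and 3.58 for all protein-coding genes. None of the 16 windows near Kcnn1, a small-conductance channel, or of the 12 near Kcna7, the Kv1.7 channel, was nearest to the channel gene. All 9 windows near Kcnj9, a G protein-gated inward rectifier, were also within 50 kb of Kcnj10, the Kir4.1 channel of glia and kidney, and 2 were nearest to Kcnj9.

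Of the distinct windows within 50 kb of a Kcn gene, 67 (21.4%) were promoter windows of other protein-coding genes only. Windows near 2 or more Kcn genes numbered 18. The same counts were not made around all protein-coding genes, so whether these values are usual is not known. At 18 of the 96 Kcn genes (18.8%), and at 21.0% of all protein-coding genes, windows were nearby but none was nearest to the gene.

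Kcn genes were long, with a median of 27548.5 bp against 15427.5 bp for all protein-coding genes, and a window lay in the gene body of 52 of them (54.2%, 43.7% to 64.4%), against 47.0% of all. Among genes of 100 kb or longer, however, the 23 Kcn genes held 0.967 windows per 100 kb, against 1.82 in 2399 genes. Without chromosomes 7, 8, 9 and X the values were 0.850 in 22 Kcn genes and 1.53 in 1945 genes. The long Kcn genes differed among themselves. Kcnq1 on chromosome 7 held 12 windows (3.75 per 100 kb), Kcnip1 held 13 (3.57 per 100 kb, including the 5 windows nearest to Kcnmb1) and Kcnh1 held 9 (2.82 per 100 kb). In contrast, Kcnc2, Kcnd2, Kcnj3, Kcnt2 and the longer Kcnh8 entry held 0, although Kcnd2 spans 514 kb, and Kcnip4, a Kv4 partner of 1135 kb, held 3. Long genes with no window in the body made up 5 of 23 Kcn genes (21.7%) and 11.3% of all long genes.

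Short sequence words bound by transcription factors were counted on both strands of the 500-bp windows. A match describes the letters and not a binding site. AP-1 words were in 2 of the 20 Kcn promoter windows, those of Kcnn4 and Kcnab2, and in 7.47% of all 12496 promoter windows. Away from promoters, they were in 10 windows among those nearest to a Kcn start within 50 kb (7.58%, 3.69% to 13.5%), against 16.5% of 24332 such windows of all protein-coding genes. Counting all distal windows within 50 kb of a Kcn gene, whichever gene was nearest, the AP-1 share was 10.4% (6.71% to 15.2%). These distal windows included ones near Kcnmb1, Kcnn3, Kcnj1, Kcnj11 (2 windows), Kcnj15, Kcnk13, Kcng1 and Kcnq1.

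RUNX words (TGTGGTT) were in the promoter windows of Kcnn4 and Kcnj1 (2 of 20, against 7.02% of all) and in 13 of the distal windows nearest to a Kcn start (9.85%, 5.35% to 16.3%, against 13.6%). SP/KLF words were in 6 of 20 Kcn promoter windows (30.0%, 11.9% to 54.3%), against 22.5% of all, and CTCF core words (AGGTGGC or AGGGGGC) in 6 of 20, against 29.3%. The short core word of the hypoxia-inducible factor HIF (ACGTG or GCGTG) was in 18 of 20 (90%, 68.3% to 98.8%), against 75.6%. In the distal windows nearest to a Kcn start its share was 37.9% (29.6% to 46.7%), against 46.4%. Both intervals include the share over all protein-coding genes. A full cyclic AMP element (TGACGTCA) was in the Kcna5 window (1 of 20, against 3.46% of all), an Ets word (CCGGAAGT) in that of Kcnd3 (against 7.45%) and a PU.1 word (GAGGAAGT) in that of Kcnj2 (against 4.14%). The RE1 word read by the neuronal repressor REST was CAGCACC and GGACAG, 2 bases apart. It was in 0 of the 20 promoter windows and 0 of the distal windows of Kcn genes. Over all protein-coding genes it was in 9 of 12496 promoter windows (0.0720%) and 5 of 24332 distal windows (0.0205%). A word this rare would be missing from so few windows of almost any gene set, so its absence says nothing about Kcn genes. The median CpG count was 20 in Kcn promoter windows (range 4 to 71), against 32 in all promoter windows, and 6 in the distal windows of both.

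Other ion channel families gave a range of shares, beside 43.5% over all protein-coding genes. Voltage-gated sodium channels had a promoter window at 3 of 15 genes (20.0%), all on chromosomes 7, 8, 9 or X, HCN channels at 0 of 4, calcium channels at 10 of 26 (38.5%), P2X receptors at 3 of 7 (42.9%), chloride channels at 4 of 9 (44.4%), TRP channels at 13 of 26 (50.0%) and the sodium-potassium pump at 4 of 8 (50.0%). The Kcn share of 17.7% was nearest to that of the sodium channels. The exact intervals of Kcn genes (10.7% to 26.8%) and TRP channels (29.9% to 70.1%) did not overlap, but without chromosomes 7, 8, 9 and X the TRP share was 7 of 18 (38.9%). The difference between families was not tested. Among 9 genes whose proteins assemble with potassium channels, the sulfonylurea receptors Abcc8 and Abcc9 of the ATP-sensitive channel, Dpp6 and Dpp10 of Kv4 channels, Amigo1 of voltage-gated channels and the BK partners Lrrc26, Lrrc38, Lrrc52 and Lrrc55, 0 had a promoter window (95% upper bound 33.6%, against 43.5% of all protein-coding genes) and 8 had a window within 50 kb (84.6% of all protein-coding genes had one).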

How the data were processed

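Single cells of 1 PyMT breast tumor were measured by Pi-ATAC. According to the methods and the submitters' processing notes, read pairs were mapped to mm9 with Bowtie2 2.1.0, duplicates were removed with Picard 1.79, and summits were called on aggregated cells at q 0.05 with MACS2 (version: not given in the sources used here). The deposited values are other quantities than counts, namely positions of 50000 windows, made by the authors without score or count. The paper describes them as the peaks with the lowest q, so low-ranked peaks are missing from the list. Without scores this ranking could not be checked, and the reason for the uneven share of peaks kept across chromosomes was not found.

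Window centres were placed against all transcript start sites of GENCODE vM1 on the NCBIM37 sequence (mm9), with positions counted from 1, using pandas 2.3.3, numpy 2.4.6 and scipy 1.17.1 under Python 3.11.15, and figures were drawn with matplotlib 3.10.9. The placement was checked on simulated windows. Without replicates or a contrast, no test was run, and the main Kcn shares and means stand beside those of all protein-coding genes. The numbers of called peaks come from the running numbers in the window names and are lower bounds. Named genes are, with the exceptions below, those with a promoter window, those with most nearby windows, the role lists and the partners. Genes named for CpG content, body length, distance, subfamily context or a sequence word were chosen after their values were seen. The members and lists were chosen with earlier results of these data known. A few genes are counted in the totals but are not reported here by name or drawn.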

Additional observations from a re-analysis of the deposited data

How the results depend on the processing

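The share of Kcn genes with a promoter window was 10.4% with the 5′ end of the gene as the only start site (all protein-coding genes 39.4%), and that of accessory genes was then 5.88%. A window lay within 10 kb at 54.2% of Kcn genes (all genes 61.4%) and within 100 kb at 93.8% (all genes 91.9%). The mean number of windows was 1.61 when only those nearest to the gene counted (all genes 1.68), 0.875 within 10 kb (all genes 1.36) and 6.93 within 100 kb (all genes 7.35). By definition, a narrower count can only lower these values and a wider one can only raise them. How far the changes differed from those of all genes was not tested. The promoter share stayed inside the interval of the main value with a promoter distance of 500 bp (13.5%, all genes 40.1%) or 2 kb (24.0%, all genes 47.0%), with coding transcripts only (17.7%, all genes 42.3%), with any base of the window counted (18.8%, all genes 44.5%) and with only nearest windows (17.7%, all genes 40.2%). Chosen after seeing the data, 1 entry per symbol gave 18.1%, and leaving out chromosomes 7, 8, 9 and X gave 20.0% in the most CpG-rich class. No other alternative moved a subfamily's share outside its interval. A list limited to a fixed number of windows cannot show whether a channel without one is closed, and the limit from depth was not measurable.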
